A study of Mus musculus with 8 samples.

Results

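The smooth muscle contractile genes examined here were 10 genes chosen by name: *Myocd*, *Acta2*, *Actg2*, *Myh11*, *Tagln*, *Cnn1*, *Smtn*, *Lmod1*, *Ppp1r14a* and *Des*. All 10 had a row among the 30890 genes of the deposited count table, and 9 of them were among the 16723 genes with enough reads to be tested. *Tagln* was not among the tested genes. RNA was sequenced from whole kidneys of C57BL/6 mouse embryos taken at stage E12.5 (in embryonic days) and kept in culture for 72 h. In 4 samples the medium held 5 μM CHIR99021, a GSK-3β inhibitor that stabilizes β-catenin, and in the other 4 it held 0.1% DMSO, the solvent. The labels name no transgene or engineered allele in any sample. The study's methods put the left kidney of each embryo in the control group and the right in the treated group, and they left out kidneys whose Wnt/β-catenin target genes had not responded. The comparison asks how these genes differed between kidneys with activated Wnt/β-catenin signaling and their controls. These are bulk measurements, so fewer smooth muscle cells and less RNA per cell cannot be told apart.

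Smooth muscle cells contract when myosin slides along actin filaments after phosphorylation of the myosin light chain. Many genes of this machinery are switched on together by serum response factor (SRF), which binds a DNA element called the CArG box, and by its coactivator myocardin, the product of *Myocd*. In the developing urinary tract, smooth muscle forms around the ureter and renal pelvis from mesenchyme under the influence of Wnt, Shh and Bmp4 signals, and in the kidney it also forms the walls of arteries. *Acta2* is not specific to smooth muscle, since activated fibroblasts and some stromal cells express it too, and *Des* is found in all muscle types and in mesangial cells and pericytes.

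The counts summed to 14599082 to 17751992 per sample. The groups were apart in other library measures, with 24243 to 24912 genes detected and 2.47 to 3.20% of counts on mitochondrial genes with DMSO, against 23646 to 23938 genes and 3.48 to 4.14% with CHIR99021, and the part of these in the results was not tested. Levels are given as CPM, a gene's counts relative to the size of its library after scaling of library sizes by the trimmed mean of M-values (TMM). Changes are log2 fold changes of CHIR99021 over DMSO with their standard error (SE), from edgeR's quasi-likelihood test, and a gene was called higher or lower when its p-value was under 0.05 after Benjamini-Hochberg adjustment across the tested genes. Of all tested genes, 48.7% were called, 23.7% higher and 25.0% lower. Nothing in the labels states that samples of a group came from separate cultures or litters, so the p-values measure the spread between these samples.

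The 10 genes did not move as one group in CHIR99021-treated kidneys. *Myocd* rose 39.5-fold from a level under 1 CPM, and *Acta2* and *Cnn1* rose 3.08-fold and 3.33-fold. *Ppp1r14a*, *Des* and *Smtn* fell. *Myh11*, *Actg2* and *Lmod1* did not pass the test, and *Tagln* was barely detected in either group. Of the 9 tested members, 3 were higher, 3 lower and 3 not called, set against 23.7% and 25.0% of all tested genes. The median log2 fold change was 0.24 over the 9 tested members and −0.0029 over all tested genes. The median absolute log2 fold change was 1.11 over these members and 0.27 over all tested genes. The CPM of the treated and control samples did not overlap in 6 of the 9 tested members, 3 with the treated samples higher and 3 with them lower. The same held for 46.1% of all tested genes, 22.7% with the treated samples higher and 23.4% with them lower. The members were chosen with earlier results of these data known, so these contrasts with all tested genes are descriptions and not independent evidence.

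**Figure D1:**
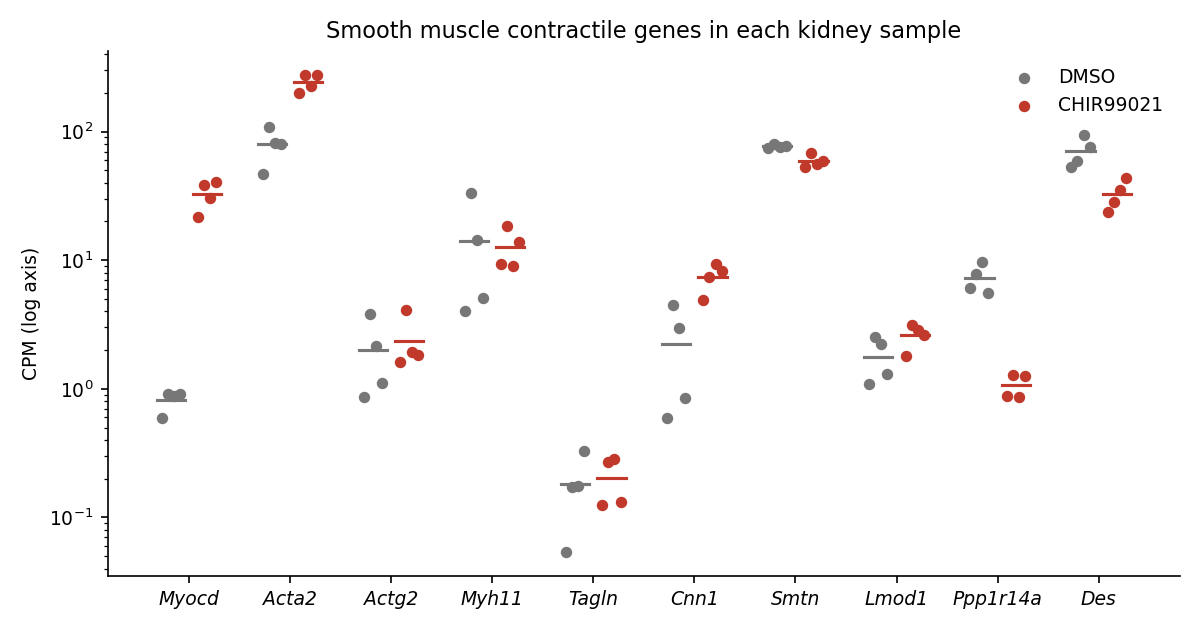
CPM on a log axis for each of the 10 genes, with grey points for the 4 DMSO samples, red points for the 4 CHIR99021 samples and bars for the group means. The groups lie apart for *Myocd*, *Acta2*, *Cnn1*, *Smtn*, *Ppp1r14a* and *Des*, and they overlap for *Actg2*, *Myh11*, *Tagln* and *Lmod1*.

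*Myocd* (chromosome 11, 65176561 to 65269989, minus strand; all positions are on GRCm38) encodes myocardin. Its raw counts were 11, 16, 15 and 14 in DMSO replicates 1 to 4 and 346, 575, 423 and 616 in CHIR99021 replicates 1 to 4. In CPM these were 0.595, 0.914, 0.879 and 0.916 with DMSO and 21.6, 38.5, 30.4 and 40.5 with CHIR99021. Every treated sample was more than an order of magnitude above every control. This is a log2 fold change of 5.30 ± 0.25 (SE, n = 4 per group; edgeR adjusted p = 6.74e-08), which is 39.5-fold with a 95% interval of 26.7 to 58.5. It was the 18th highest log2 fold change of all tested genes. The fold change rests on 56 reads in the 4 control samples together.

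*Acta2* (chromosome 19, 34241090 to 34255336, minus strand) encodes smooth muscle α-actin, the actin isoform most used as a marker of smooth muscle. Its levels were 47.2, 109, 80.8 and 80.7 CPM in the DMSO samples and 198, 275, 226 and 277 CPM in the CHIR99021 samples. All treated samples were above all controls. The group means were 79.4 ± 25.2 and 244 ± 38.5 CPM (SD, n = 4 each), with a log2 fold change of 1.62 ± 0.26 (SE; edgeR adjusted p = 0.00193). *Acta2* was the most abundant of the 10 genes in both groups.

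The proximal promoter of *Acta2*, one of the best studied targets of SRF, is shown because this gene rose together with the SRF coactivator. It is taken from RefSeq (GRCm38.p6, chr19:34255324-34255623, minus strand) and runs 5′ to 3′ from 250 bases before the RefSeq start to 50 bases after it. That start, 34255373, lies 37 bases beyond the gene end given in the deposited table. Capitals mark CArG-like elements, which have the outer CC and GG of a CArG box and a centre of 6 bases with 1 base that is neither A nor T.
*Acta2* promoter: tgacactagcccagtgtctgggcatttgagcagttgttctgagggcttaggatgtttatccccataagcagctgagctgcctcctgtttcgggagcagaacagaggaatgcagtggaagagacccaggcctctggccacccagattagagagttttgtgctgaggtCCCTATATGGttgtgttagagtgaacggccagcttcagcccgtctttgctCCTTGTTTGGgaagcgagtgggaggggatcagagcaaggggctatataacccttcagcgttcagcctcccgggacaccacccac

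The matches were CCCTATATGG, beginning 84 bases before the RefSeq start, and CCTTGTTTGG, beginning 34 bases before it. The search for CArG-like elements followed a search for the strict CArG box, with only A or T in the centre, which had no match in these letters. RefSeq promoter windows of the same length were at hand for 6 of the 10 genes (*Acta2*, *Cnn1*, *Des*, *Lmod1*, *Smtn* and *Ppp1r14a*). On either strand, the strict CArG box was in 0 of the 6, as in 1.63% of all 32851 promoters, and the CArG-like element was in *Acta2* alone, as in 8.5% of all promoters. The sites read by TCF/LEF factors, the DNA-binding partners of β-catenin, were searched on both strands as CTTTG followed by any pair of A and T letters. They were in 0 of the 6 promoters and in 16.9% of all promoters. The GC content was 71.3% for *Ppp1r14a*, 65.3% for *Des*, 59.3% for *Cnn1*, 56.3% for *Smtn*, 55.0% for *Lmod1* and 54.7% for *Acta2*, with a median of 52.7% over all promoters.

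*Actg2* (chromosome 6, 83512905 to 83536265, minus strand) encodes smooth muscle γ-actin, the main actin of visceral smooth muscle. Its levels were 0.866, 3.83, 2.17 and 1.11 CPM with DMSO and 1.62, 4.08, 1.94 and 1.84 CPM with CHIR99021. The groups overlapped over most of their range, and replicate 2 was the highest sample in both. The log2 fold change was 0.24 (95% interval −0.83 to 1.32; edgeR adjusted p = 0.706), an interval that reaches from a fall to 0.564-fold to a rise to 2.49-fold. Its direction rested on single samples, with a log2 fold change of −0.02 without DMSO replicate 1 and −0.15 without CHIR99021 replicate 2.

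*Myh11* (chromosome 16, 14194527 to 14291408, minus strand) encodes the smooth muscle myosin heavy chain, the motor of contraction and the marker most restricted to mature smooth muscle. Its levels were 4.06, 33.2, 14.4 and 5.10 CPM with DMSO and 9.36, 18.5, 8.97 and 13.9 CPM with CHIR99021. The treated samples lay inside the range of the controls, which spanned 8.19-fold from lowest to highest. The log2 fold change was −0.17 (SE 0.72; edgeR adjusted p = 0.872), and its 95% interval in folds, 0.269 to 2.95, spans both a marked fall and a marked rise. The direction was not stable, with 0.14 when the replicate number was fitted as a block and 0.69 without DMSO replicate 2, neither past the threshold.

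Calponin, smoothelin, leiomodin and transgelin bind actin filaments. *Cnn1* (chromosome 9, 22099216 to 22109630, plus strand) encodes calponin 1, which slows the myosin motor on actin. Its levels were 0.595, 4.45, 2.99 and 0.851 CPM with DMSO and 4.87, 7.36, 9.33 and 8.22 CPM with CHIR99021. The highest control lay just below the lowest treated sample. The log2 fold change was 1.73 ± 0.56 (SE, n = 4 per group; edgeR adjusted p = 0.0355), with a 95% interval in folds of 1.34 to 8.26. The call was lost when any one of 5 samples was left out (DMSO replicates 3 and 4, CHIR99021 replicates 2, 3 and 4), with adjusted p-values of 0.0588 to 0.0805, and without the expression filter, at 0.0949.

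*Smtn* (chromosome 11, 3517523 to 3540612, minus strand) encodes smoothelin. Its levels were 75.1, 80.2, 76.5 and 77.6 CPM with DMSO and 53.0, 68.3, 56.4 and 59.0 CPM with CHIR99021. The controls were nearly the same, within 1.07-fold of each other, and all treated samples were below them. The fitted change was −0.39 ± 0.07 on the log2 scale (SE, n = 4 per group; edgeR adjusted p = 0.000591), the smallest change among the called members. The exons of *Smtn* share 16.3% of their bases with *Gm11946* on the opposite strand, which had 3 to 8 counts per sample.

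*Lmod1* (chromosome 1, 135324807 to 135368065, plus strand) encodes leiomodin 1, which nucleates actin filaments in smooth muscle. Its levels were 1.08, 2.51, 2.23 and 1.31 CPM with DMSO and 1.81, 3.15, 2.87 and 2.63 CPM with CHIR99021. The groups overlapped, but within each pair of equally numbered samples the treated one was higher. On the log2 scale the change was 0.55 ± 0.29 (SE; edgeR adjusted p = 0.141) and did not pass the test. With the replicate number as a block it was 0.58 and passed, with an edgeR adjusted p of 0.0444.

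*Tagln* (chromosome 9, 45929619 to 45936058, minus strand) encodes transgelin, usually among the most abundant messages of smooth muscle. It had 1, 3, 3 and 5 counts in the DMSO samples and 2, 4, 4 and 2 counts in the CHIR99021 samples, 12 in each group. These counts were too low for the test, and no difference was detectable at this depth. In the GENCODE M21 annotation, 67.9% of the *Tagln* exon bases lie opposite exons of other genes, 62.4% opposite *Gm48529*, which has no row in the table used here, and 5.43% opposite *Pcsk7*, which had 448 to 603 counts per sample. The strand setting of the read counting is not given in the sources at hand, and without strand, reads from *Tagln* and its partners cannot be told apart. The low *Tagln* count is therefore uncertain as a measure of its RNA.

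*Ppp1r14a* (chromosome 7, 29289308 to 29293801, plus strand) encodes an inhibitor of myosin light chain phosphatase that prolongs contraction. Its levels were 6.06, 7.77, 9.67 and 5.56 CPM with DMSO and 0.874, 1.27, 0.861 and 1.25 CPM with CHIR99021. All treated samples were far below all controls. The log2 fold change was −2.76 ± 0.24 (SE, n = 4 per group; edgeR adjusted p = 1.03e-06), and the control mean was 6.83 times the treated mean. The study itself names *Ppp1r14a* from these samples, so its direction here is not independent evidence.

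*Des* (chromosome 1, 75360329 to 75368579, plus strand) encodes desmin, the intermediate filament protein of muscle. Its levels were 52.7, 59.0, 93.4 and 76.5 CPM with DMSO and 23.6, 28.6, 34.95 and 43.5 CPM with CHIR99021. All treated samples were below all controls. Desmin RNA had a log2 fold change of −1.11 ± 0.25 (SE, n = 4 per group; edgeR adjusted p = 0.00802). *Gm15179* on the opposite strand shares 5.86% of the *Des* exon bases and had 0 to 4 counts per sample.

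**Figure D2:**
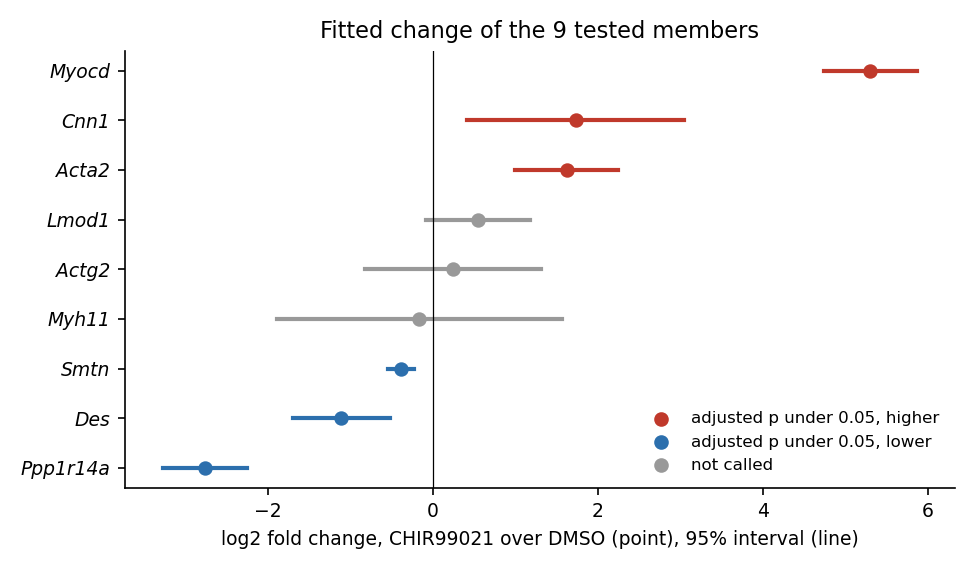
Log2 fold change of CHIR99021 over DMSO for the 9 tested genes, with points for the edgeR estimate and lines for its 95% interval. Red marks genes called higher, blue genes called lower and grey genes not called, from 5.30 for *Myocd* to −2.76 for *Ppp1r14a*.

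The samples of a group differed from each other in a way that many of these genes shared. DMSO replicate 1 was the lowest control for 8 of the 9 tested members, and DMSO replicate 2 the highest for 6. CHIR99021 replicate 1 was the lowest treated sample for 7 members and CHIR99021 replicate 2 the highest for 5. The order of the samples was not counted over all tested genes. Whether it is particular to these members or shared by whole libraries was therefore not tested. Among the tested members the spread of the controls was widest for *Myh11*, *Cnn1* (7.48-fold from lowest to highest) and *Actg2* (4.42-fold), followed by *Lmod1* (2.32-fold) and *Acta2* (2.31-fold).

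Across all tested genes, equally numbered samples correlated weakly, at 0.111 to 0.346 after removal of the group means. Treated and control samples of unlike number correlated at −0.18 to 0.0766, so equally numbered samples were taken as pairs for the folds below. The calls and p-values of the main fit do not use these pairs. With the replicate number as a block in edgeR, *Lmod1* was called higher as well, and no other member changed its call. The treated sample lay on the same side of its control in all 4 pairs for 7 of the 9 tested members, as for 61.1% of all tested genes. These were *Myocd*, *Acta2*, *Cnn1* and *Lmod1*, higher in 4 of 4 pairs, and *Smtn*, *Ppp1r14a* and *Des*, lower in 4 of 4. Within pairs the folds of *Myocd* were close to each other, at 34.6 to 44.2, and those of *Acta2* ran from 2.52 to 4.21. The folds of *Cnn1* ran from 1.65 to 9.66, with the larger ones in pairs 1 and 4, whose controls were lowest. *Myh11* was higher in pairs 1 and 4, at 2.31-fold and 2.73-fold, and lower in pairs 2 and 3, at 0.556-fold and 0.623-fold.

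**Figure D3:**
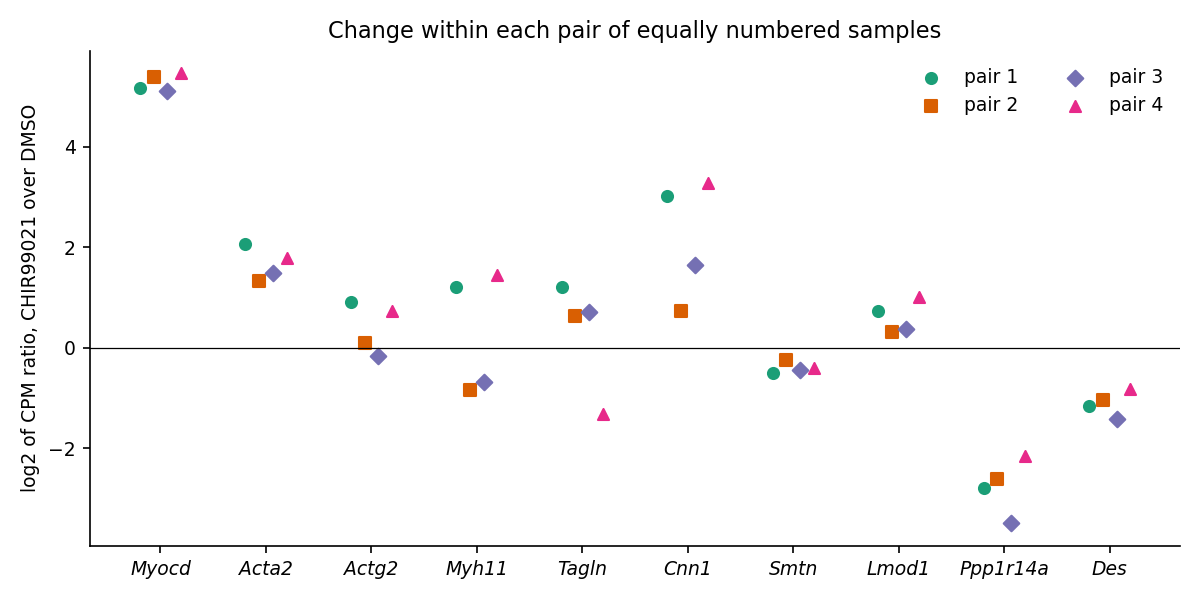
Log2 ratio of CPM, CHIR99021 over DMSO, within each of the 4 pairs of equally numbered samples, for the 10 genes. The 4 pairs lie on one side of 0 for *Myocd*, *Acta2*, *Cnn1*, *Lmod1*, *Smtn*, *Ppp1r14a* and *Des*, while *Myh11* splits into pairs 1 and 4 above 0 and pairs 2 and 3 below it.

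Levels were compared between genes in FPKM, the deposited values scaled by gene length and by the fragments sequenced in a sample. With DMSO the order of group means was *Acta2* (46.6 FPKM), *Des* (19.6), *Smtn* (18.5), *Ppp1r14a* (5.56), *Myh11* (2.24), *Actg2* (1.34), *Cnn1* (0.849), *Lmod1* (0.472), *Myocd* (0.135) and *Tagln* (0.0959). Neighbours in this order overlapped between samples except *Acta2* above *Des*, *Smtn* above *Ppp1r14a* and *Lmod1* above *Myocd*. With CHIR99021 the order in FPKM was *Acta2* (131), *Smtn* (12.9), *Des* (8.29), *Myocd* (4.86), *Cnn1* (2.59), *Myh11* (1.82), *Actg2* (1.45), *Ppp1r14a* (0.742), *Lmod1* (0.631) and *Tagln* (0.0971). There the neighbours that did not overlap were *Acta2* above *Smtn*, *Smtn* above *Des*, *Actg2* above *Ppp1r14a* and *Lmod1* above *Tagln*. *Myocd* moved from the ninth place to the fourth and *Ppp1r14a* from the fourth to the eighth.

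The make-up of the group was also compared within each sample, as the log2 ratio of each gene's FPKM plus 0.1 to that of *Acta2*. Relative to *Acta2*, 7 of the 9 other genes were lower with CHIR99021, 1 was higher and 1 did not pass the test. *Acta2* itself rose 3.08-fold, so a gene with an unchanged level also has a lower ratio. *Myh11*, *Actg2* and *Lmod1*, with lower ratios, did not pass the test of their own level. The log2 ratio of *Des* went from −1.22 ± 0.50 to −3.98 ± 0.29 (SD, n = 4 each), a difference of −2.77. That of *Smtn* differed by −2.05, that of *Ppp1r14a* by −4.27, that of *Lmod1* by −1.14 and that of *Actg2* by −1.31. The ratio of *Myh11* to *Acta2* went from −4.71 ± 0.95 to −6.13 ± 0.29, a difference of −1.42, although the level of *Myh11* itself did not pass its test. The ratio of *Myocd* to *Acta2* rose by 2.84. Each of these differences separated all treated samples from all controls and had p = 0.0286 in a two-sided exact permutation test, the smallest that 4 against 4 samples allow, and 0.0321 after adjustment over 9 ratios. *Tagln* also passed, at −1.50, but its FPKM lies near the added 0.1 and its ratio then follows *Acta2* alone. The ratio of *Cnn1* differed by 0.28, did not pass (exact permutation p = 0.543) and changed sign to −0.50 with FPKM plus 1. With ratios of counts plus 1 in place of FPKM, *Myh11* and *Actg2* no longer passed (exact permutation, adjusted p = 0.0643), and with FPKM plus 1 the rise of *Myocd* was 0.83.

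**Figure D4:**
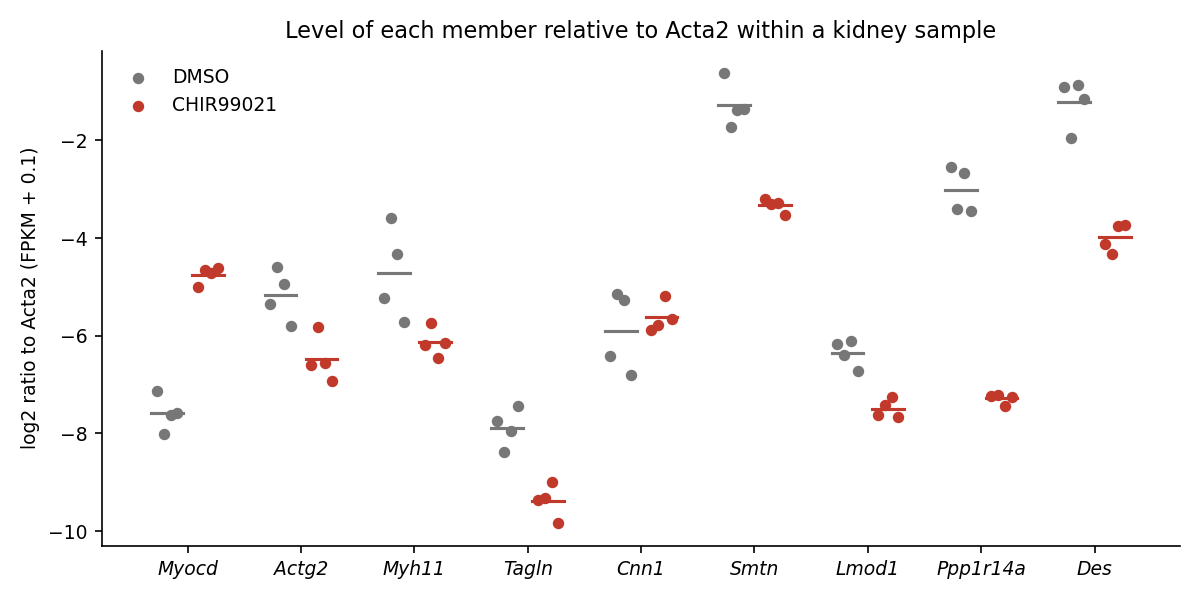
Log2 ratio of each gene's FPKM plus 0.1 to that of *Acta2* in the same sample, with grey points for DMSO, red points for CHIR99021 and bars for group means. *Myocd* moved up, *Cnn1* overlaps between the groups, and the other 7 genes moved down relative to *Acta2*.

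Further lists of genes around this programme were counted in the same fit. Together the 10 lists held 149 tested genes, of which 48 were higher and 55 lower. The counts of each list stand beside 23.7% higher and 25.0% lower over all tested genes. Among the regulators of the smooth muscle gene programme, 7 of 16 tested genes were higher, 4 lower and 5 not called, with a median log2 fold change of 0.17. *Csrp2* and *Csrp1*, LIM proteins that bridge SRF and GATA factors, rose from 32.8 to 85.8 CPM and from 176 to 407 CPM. *Elk3*, an ETS factor that competes with myocardin for SRF, rose by 0.78 on the log2 scale (edgeR adjusted p = 3.09e-07), whereas *Mef2c*, a MADS-box factor related to SRF, fell from 58.9 to 23.4 CPM (log2 fold change −1.33, edgeR adjusted p = 3.38e-06). The SRF gene itself was at 63.8 ± 1.33 CPM with DMSO and 70.7 ± 5.18 with CHIR99021 (*Srf*, log2 fold change 0.15, edgeR adjusted p = 0.0517). With the replicate number as a block *Srf* passed (0.15, edgeR adjusted p = 0.0437), and it was called in 3 of 18 alternative analyses. *Mkl1*, the myocardin-related coactivator, had a log2 fold change of 0.19 and an adjusted p of 0.0334, and it lost its call in 10 of 18 alternative analyses. *Srf* and *Mkl1* were picked after their values were seen, as were *Nexn*, *Pdlim3*, *Kcnmb1*, *Myl9*, *Mylk*, *Abcc9*, *Rgs5*, *Ren1*, *Pdgfrb*, *Notch3*, *Col3a1*, *Postn*, *Foxd1*, *Tcf21* and *Meis1* below.

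Of the other genes of the contractile apparatus, 15 of 29 tested genes were higher, 6 lower and 8 not called, with a median log2 fold change of 0.20. Filamin A (*Flna*), which crosslinks actin, rose from 838 ± 22.4 to 1416 ± 45.0 CPM (SD, n = 4 each), and caldesmon (*Cald1*), which binds actin and tropomyosin, from 308 to 608 CPM. *Nexn* and *Pdlim7*, which sit at actin anchoring sites, rose by 1.39 and 0.88 on the log2 scale. *Synpo2*, an actin-bundling protein, had a log2 fold change of −1.57 (edgeR adjusted p = 6e-06), and *Pdlim3*, a PDZ-LIM gene like *Pdlim7*, one of −1.32. *Kcnmb1*, the smooth muscle subunit of the BK potassium channel, rose from 0.772 to 3.60 CPM (log2 fold change 2.21, edgeR adjusted p = 0.000214). The myosin regulatory light chain *Myl9* rose by 0.76 (edgeR adjusted p = 0.0117), whereas *Mylk*, the kinase that phosphorylates it, had a log2 fold change of 0.16 and did not pass (adjusted p = 0.264).

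Among the paralogs of the members, which other cell types use, 6 of 15 tested genes were higher, 4 lower and 5 not called. *Cnn2*, the calponin of non-muscle cells, rose from 109 to 261 CPM, a log2 fold change of 1.25 beside 1.73 for *Cnn1*. Non-muscle β-actin (*Actb*) rose by 0.48 (edgeR adjusted p = 1.05e-05), a call that was lost with limma on log2(count + 1), and *Tagln2* by 0.44. The smoothelin-like gene *Smtnl2* fell by 0.91 on the log2 scale. The members share little sequence with their paralogs as 50-base stretches, 0.326% for *Acta2* and 0.340% for *Myh11*, so few reads could be exchanged between them.

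In the list of ureteric mesenchyme and its signals, 6 of 18 tested genes were higher, 6 lower and 6 not called. *Axin2*, a β-catenin target, rose by 3.24 on the log2 scale, *Fzd1*, a Wnt receptor, by 1.92, and *Tbx2*, a T-box factor of this mesenchyme, by 1.57. *Aldh1a2*, which makes retinoic acid, fell by 1.15. Kidneys without a response of Wnt target genes had been left out by the study, so the rise of such targets is not independent evidence. Of 14 genes of the TGF-β pathway, which also drives *Acta2* and *Cnn1*, 6 were higher, 2 lower and 6 not called. *Tgfb2* rose from 42.8 to 168 CPM, *Tgfbi* by 1.01 and *Skil* by 0.56 on the log2 scale, and *Smad3* fell by 0.54.

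Markers of other cells that express some of these genes were also counted. Over all tested genes, 23.7% were higher and 25.0% lower. Of 15 stroma and fibroblast markers, 6 were higher, 4 lower and 5 not called, and their summed level was 5847 to 7854 CPM with DMSO and 11170 to 13630 CPM with CHIR99021. Their median log2 fold change was 0.06. The 4 matrix genes *Col1a1*, *Col1a2*, *Col3a1* and *Postn* made up most of the sum, with 4581 to 6221 CPM and 9606 to 11890 CPM, and the other 11 genes had 1266 to 1633 CPM and 1565 to 1740 CPM. *Col1a1* and *Col1a2*, the chains of type I collagen, rose by 1.34 and 1.13 on the log2 scale and the mesenchymal receptor *Pdgfra* by 1.19, while *Ntn1* fell by 2.30. The stromal factors *Foxd1*, *Tcf21* and *Meis1* were called lower, with log2 fold changes of −0.53, −0.29 and −0.33. The groups overlapped in CPM for *Foxd1* and *Tcf21* but not for *Meis1*, and the call of *Foxd1* was lost in 2 of 18 alternative analyses. Of 13 tested pericyte, mural, mesangial and renin cell markers, 1 was higher, 7 lower and 5 not called, and their sum went from 1062 to 1375 CPM down to 671 to 791 CPM. *Abcc9* and *Kcnj8*, subunits of the potassium channel of pericytes, had log2 fold changes of −2.62 and −2.20, *Cspg4* of −0.97, *Mcam* of −0.91 and *Rgs5* of −1.68. The called gene that was higher was the connexin *Gja5*, at 0.810 CPM with DMSO and 1.72 CPM with CHIR99021 (log2 fold change 1.06, edgeR adjusted p = 0.0129). The abundant mural genes *Pdgfrb*, at 233 and 218 CPM, and *Notch3*, at 152 and 153 CPM, did not pass, with log2 fold changes near 0 whose sign varied between analyses. *Ren1*, which encodes renin, had −1.27, a call lost in 7 of 18 alternative analyses.

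All 11 endothelial markers were lower, with sums of 501 to 703 CPM in controls and 196 to 272 CPM in treated samples. Their log2 fold changes included −1.60 for *Cdh5*, the cadherin of endothelial junctions, −2.04 for *Plvap*, −1.32 for *Erg* and −1.24 for *Esam*. All 7 urothelial markers were also lower, from sums of 37.0 to 81.5 CPM to sums of 5.93 to 11.04 CPM. The log2 fold changes were −3.63 for *Upk3a* and −3.39 for *Upk3b*, which line the bladder and ureter surface, and −1.93 for *Krt5* and −1.71 for *Trp63*, genes of its basal layer. Of 13 tested striated muscle markers, 1 was higher (*Mybpc1*, by 3.00), 5 were lower and 7 not called, with sums that overlapped at 41.3 to 75.0 CPM and 38.5 to 51.5 CPM. The list median was −1.27, and without *Mybpc1* the sums were 38.7 to 71.9 CPM with DMSO and 17.7 to 27.8 CPM with CHIR99021. *Myog*, a determinant of skeletal muscle, had 30 to 80 counts per control and 1, 9, 0 and 1 in the treated samples, with a log2 fold change of −3.96 that became −5.84 without CHIR99021 replicate 2. *Tnni1* and *Tnnt1*, troponins of slow muscle, were also lower, *Tnni1* with −2.03. The part of these cell types in the changes of *Acta2*, *Des* and the other members was not tested.

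**Figure D5:**
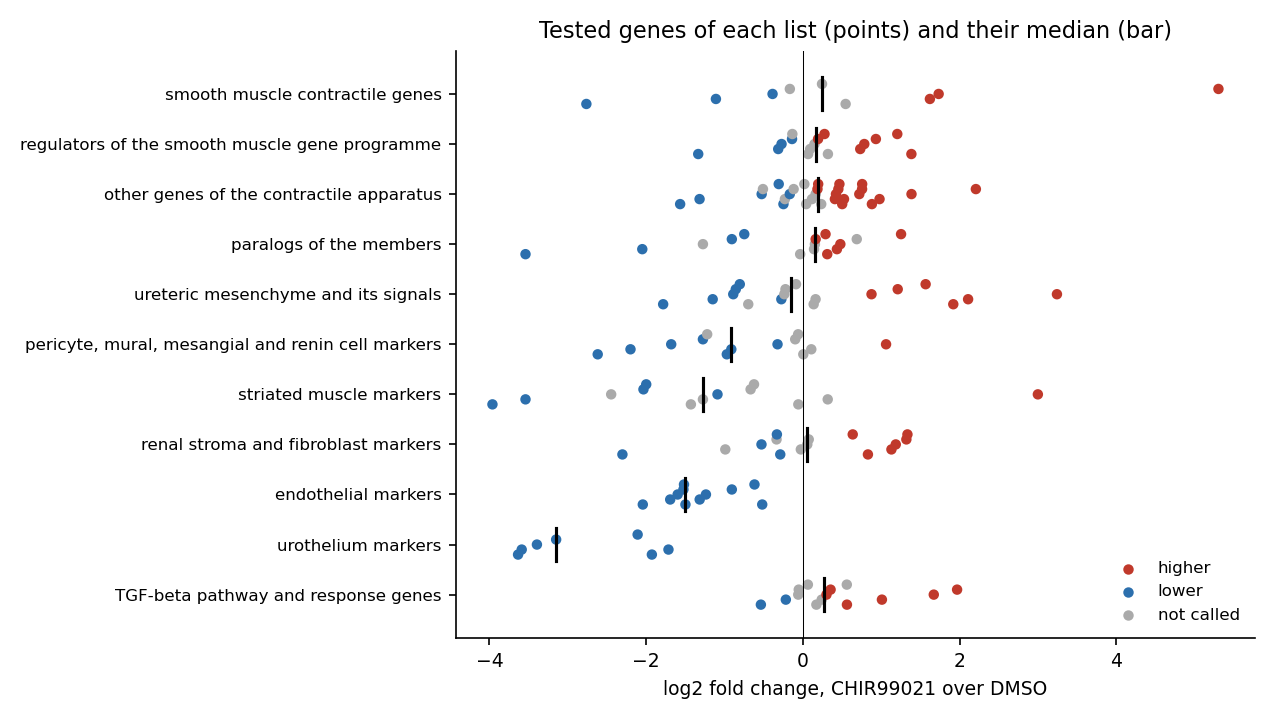
Log2 fold change of CHIR99021 over DMSO for the tested genes of the smooth muscle contractile group and of 10 further lists, with red points higher, blue points lower, grey points not called and black bars for list medians. The medians are −1.50 for endothelial and −3.15 for urothelium markers, against 0.24 for the smooth muscle contractile genes, which spread from −2.76 to 5.30.

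Genes whose levels varied like those of the members within the groups were sought over the 8 samples after removal of the group means. The closest of 15565 genes to the mean of the 9 tested members, other than members, were *Esyt1* (Pearson r = 0.976), *Tnnt2* (0.966), *Hbegf* (0.965), *Alox12* (0.964) and *Dqx1* (0.956). Of the members themselves, which are part of that mean, *Lmod1* (0.968), *Myh11* (0.942), *Cnn1* (0.930), *Actg2* (0.905) and *Acta2* (0.895) followed it closely. *Ppp1r14a* (0.795), *Myocd* (0.678), *Smtn* (0.572) and *Des* (0.402) followed it less. These values describe likeness over 8 samples that share libraries, depth and pairing, and they carry no test. The non-member genes named are the top of a search over 15565 genes. How high unrelated genes would reach in such a search was not tested.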

How the data were processed

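RNA of 8 whole embryonic kidneys was sequenced, 4 per treatment. Reads were mapped by the authors to GRCm38 (HISAT2 2.0.5) and assigned to genes by featureCounts, and the counts they deposited are unscaled whole numbers. The FPKM values were also deposited by the authors. For RNA and library preparation the paper and the labels name different kits. The authors' own columns of mean signal, fold change, p-values and calls were not used. Positions and gene names are those of the deposited table, and exon overlaps are from GENCODE M21.

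Groups follow the treatment in the labels. Counts were analysed in R 4.3.3 with edgeR 4.0.16 (filterByExpr at min.count 10 and min.total.count 15, TMM, glmQLFit with robust estimation, glmQLFTest, group as the only term). Ratios to *Acta2* were compared by a two-sided exact permutation test over 70 splits. The edgeR fit and the permutation test were tried on simulated data, the edgeR fit with 200 genes changed. That is far fewer than the 8138 genes called here, so the trial does not give the error rates of these data. Equally numbered samples correlated at 0.111 to 0.346 after removal of the group means and all others at −0.18 to 0.0766, so the numbers, which the labels give to both groups, were taken as pairs. Whether a number marks the kidneys of 1 embryo is not stated. Alternatives were a replicate block, RLE and upper-quartile scaling, DESeq2 1.42.0, no filter, at least 1 CPM in 4 samples as the filter, limma 3.58.1 on log2(count + 1), log2(FPKM + 1) and log2(FPKM + 0.1), other pseudocounts for the ratios, and each sample left out in turn.

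The members and gene lists were chosen with earlier results of these data known. The named genes are all members, up to 4 called genes of each list with the smallest p (where these all went one way, the fourth gave place to the gene with the smallest p in the other direction), the 5 genes most like the members, and genes overlapping a member. Others are marked as picked after their values were seen.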

Additional observations from a re-analysis of the deposited data

Results flagged for a closer look

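Dixon's test at the 95% level was applied to the CPM of each member and to the summed CPM of each further list, over the 4 samples of a treatment at a time. These were 40 groups of values, of which chance alone would mark about 1 in 20. It marked 2. *Actg2* in CHIR99021 replicate 2 stood at 4.08 CPM, while the other treated samples were at 1.62 to 1.94 CPM. *Myocd* in DMSO replicate 1 stood at 0.595 CPM, below the other controls at 0.879 to 0.916 CPM.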

How the results depend on the processing

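*Myocd*, *Acta2*, *Des*, *Smtn* and *Ppp1r14a* kept their direction and call in all 18 alternatives. The number of members called higher was 3, and 5 with limma on log2(count + 1) and the replicate block. It was 4 with the block in edgeR, 4 with limma on log2(count + 1) without the block, and 2 without the expression filter. It was 2 to 3 when each sample was left out. The number called lower was 3 in all 18. The block in edgeR changed the calls of *Lmod1* and *Srf* and of no other member or named gene. In limma the block added *Actg2* (0.66, adjusted p = 0.0428), and *Lmod1* was called with or without it.

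*Myh11* turned from −0.17 to 0.14 with the block in edgeR (adjusted p = 0.864), to 0.42 with limma on log2(count + 1), with or without the block, and to 0.11 with log2(FPKM + 0.1). With each sample left out it ranged from −0.48 to 0.69, *Actg2* from −0.15 to 0.77 and *Cnn1* from 1.41 to 2.32. *Notch3* was −0.040 with upper-quartile scaling, −0.0819 with limma on log2(count + 1), with or without the block, −0.12 with log2(FPKM + 1) and −0.13 with log2(FPKM + 0.1). With each sample left out it ranged from −0.022 to 0.046 and *Pdgfrb* from −0.21 to 0.019. The cause was not tested.

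Of the ratios to *Acta2*, 0 passed in either direction when a sample was left out or pairs were used (replicate block), because the smallest p these designs allow is 0.0571 or 0.125. *Cnn1* relative to *Acta2* was −0.50 with FPKM plus 1, and with each sample left out its difference ranged from −0.019 to 0.53.

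Over all genes, 48.6% of the calls were higher, and 29.5% and 29.2% with limma on log2(FPKM + 1) and log2(FPKM + 0.1), the second of which moved the median of all genes by −0.13. Calls of the 10 lists stayed at 39 to 54 higher and 48 to 66 lower. Depth limits *Tagln* and *Myocd*, with 12 and 56 control reads.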
